A study of Mus musculus with 22 samples.

Results

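The 7 genes described here belong to the Lin28 axis, a group of RNA-binding proteins and their partners that marks early, proliferating stages of development. They are Lin28a, Lin28b, Hmga2, Igf2bp1, Igf2bp2, Igf2bp3 and Trim71. They were taken by gene symbol, with earlier results of these data known, and all 7 were found among the 55141 genes of the mouse count tables. The 22 RNA-seq libraries fall into 10 groups. Wild-type (wt) and Hox-/- mouse embryonic stem (mES) cells were kept in medium with LIF at 100 ng/ml, CHIR99021 (a GSK-3 inhibitor) at 3 µM and PD0325901 (a MEK inhibitor) at 1 µM, with 2 libraries per genotype. Both genotypes were also taken through an adherent endoderm differentiation with 100 ng/ml Activin A and 3 µM CHIR99021, given at 24 h and at 72 h, and collected at 120 h, with 3 libraries per genotype. Gastruloids, aggregates of stem cells that form parts of an early body plan in culture, were made with Activin A from both genotypes and with Chiron from wt cells only, and were collected at 96 h or at 120 h (2 libraries in each group). The doses used on the gastruloids are not given in the sources used here. The Hox-/- cells carry mutations meant to remove all Hox function, and how many clones they represent is not given in the sources used here. The labels call the endoderm and gastruloid samples mixed cells, so fewer cells of a type and less RNA per cell cannot be told apart in any value below. Nothing says that replicates came from separate cultures, so the p-values measure only the spread between these libraries.

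Lin28a and Lin28b bind the precursors of let-7 microRNAs and keep them from maturing, and Lin28a recruits the terminal uridylyltransferases Tut4 and Tut7 to mark those precursors for decay. Mature let-7 in turn represses messenger RNAs that carry matches to its seed, among them Lin28a and Lin28b themselves, the chromatin protein gene Hmga2, the Igf2bp genes and the ubiquitin ligase and mRNA-repressor gene Trim71. In mouse embryos this loop holds early progenitors in a young state, and in embryonic stem cells it goes with pluripotency and rapid division.

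The microRNA sequences are shown because they carry the seed by which the axis is defined. Seeds, bases 2 to 8 counted from the 5′ end, are in capitals. The mature sequences are those of RefSeq for GRCm38.p6. Among those sequences 10 mature mouse RNAs (let-7a to let-7g, let-7i, let-7k and miR-98) share the seed GAGGUAG, let-7j has GAGGUAU, and both miR-125 forms, which are known to target Lin28a, have CCCUGAG.
let-7a-5p: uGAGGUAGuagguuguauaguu
let-7d-5p: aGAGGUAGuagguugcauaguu
let-7g-5p: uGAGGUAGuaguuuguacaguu
miR-98-5p: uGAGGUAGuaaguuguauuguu
let-7j: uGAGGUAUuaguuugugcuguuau
miR-125a-5p: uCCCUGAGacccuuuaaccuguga
miR-125b-5p: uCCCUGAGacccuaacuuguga

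All 7 genes have the complement of the let-7 seed, CTACCTC, in the 3′ untranslated region (UTR) of their GENCODE vM21 transcript with the longest such region. Hmga2, Lin28b, Igf2bp1 and Trim71 hold 4 matches each, Lin28a holds 2, and Igf2bp2 and Igf2bp3 hold 1 each. Among 21005 genes with a 3′ UTR, 9.02% hold at least 1 match on the transcript strand. Length matters to that share: of UTRs within 20% of the length of Hmga2's (3014 bases), 15.5% hold a match and 0.134% hold as many as 4. For Trim71, whose UTR has 5512 bases, the shares were 29.4% and 0.505%, and for Igf2bp1, with 6337 bases, 33.6% and 0.355%. Each of these sets includes the gene itself, so the small shares rest on few UTRs (3 of 2245 for Hmga2). The 7 genes were taken as members of an axis known for let-7 targeting, so their matches are a description and not a separate finding. The miR-125 match CTCAGGG occurs once in Lin28a, Lin28b, Igf2bp3 and Trim71 and was not found in Hmga2, Igf2bp1 or Igf2bp2. It occurs in 13.1% of all genes, and in UTRs of like length its share was 24.6% for Lin28a, 32% for Lin28b, 19.9% for Igf2bp3 and 37.2% for Trim71. For each gene the let-7 match nearest to the stop codon is shown with its flanks, as DNA on the transcript strand, with the match in capitals and GRCm38 coordinates. All 7 genes lie on the minus strand.
Lin28b (chr10:45381022-45381044): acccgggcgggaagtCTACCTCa
Hmga2 (chr10:120364224-120364246): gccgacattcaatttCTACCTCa
Trim71 (chr9:114512472-114512494): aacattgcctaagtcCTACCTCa
Igf2bp3 (chr6:49086787-49086809): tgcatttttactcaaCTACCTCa
Lin28a (chr4:134005189-134005211): gcacagcctgttgaaCTACCTCa
Igf2bp2 (chr16:22059473-22059495): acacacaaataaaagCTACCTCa
Igf2bp1 (chr11:95961778-95961800): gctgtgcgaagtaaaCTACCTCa
Each of these 7 matches is followed by A, a base that favours let-7 targeting. Of all let-7 matches in a gene, this holds for 1 of 4 in Lin28b and in Hmga2, 3 of 4 in Igf2bp1, and each one in the other 4 genes. The first match of Lin28b starts 36 bases after the stop codon, that of Hmga2 58 bases and that of Trim71 166 bases after it. A match is a description of the sequence and does not show binding, and mature let-7 RNAs are too short for the poly(A) libraries used here.

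The libraries held 9108085 to 28819301 counts, and the 96 h gastruloid libraries, with 14953662 or more, were deeper than those of 120 h, with 11930416 or fewer. The 39 Hox genes, summed, had 30.4 and 35.7 CPM (counts scaled to a common library total) in wt mES cells and 0.448 and 1.34 in Hox-/- mES cells, and 828 to 877 CPM against 22.5 to 28.6 CPM in endoderm. In Activin gastruloids they had 625 and 660 against 102 and 104 CPM at 96 h, and 1167 and 1190 against 63.8 and 69.5 CPM at 120 h. The 9 pluripotency markers summed to 7066 to 7460 CPM in mES cells and to 36.5 to 1104 CPM in the other libraries. The 11 definitive endoderm markers summed to 1112 to 1134 CPM in wt endoderm and 696 to 739 CPM in Hox-/- endoderm, with all 11 lower in the latter. Of all genes tested in endoderm, 23.1% were lower in Hox-/- libraries at an edgeR adjusted p under 0.05. Cer1 was close to the level of 3 counts in Hox-/- endoderm, at 0.221 CPM. In Activin gastruloids at 120 h the 11 markers summed to 1005 and 1012 CPM in wt and 205 and 212 CPM in Hox-/- libraries. There 9 of the 11 were lower and Gata6 (-0.23 in log2, edgeR adjusted p = 0.0717) and Cxcr4 (0.07, adjusted p = 0.365) did not pass. By the same test 25.5% of all genes were lower and 24.9% higher in Hox-/- gastruloids at 120 h. Of the 7 markers of caudal and presomitic mesoderm 6 were higher there in Hox-/- libraries and T was lower (164 against 304 CPM, -0.78), and they summed to 699 and 721 CPM in wt and 972 and 989 CPM in Hox-/- libraries. The part of these makeup differences in the values of the 7 genes was not tested.

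**Figure D1:**
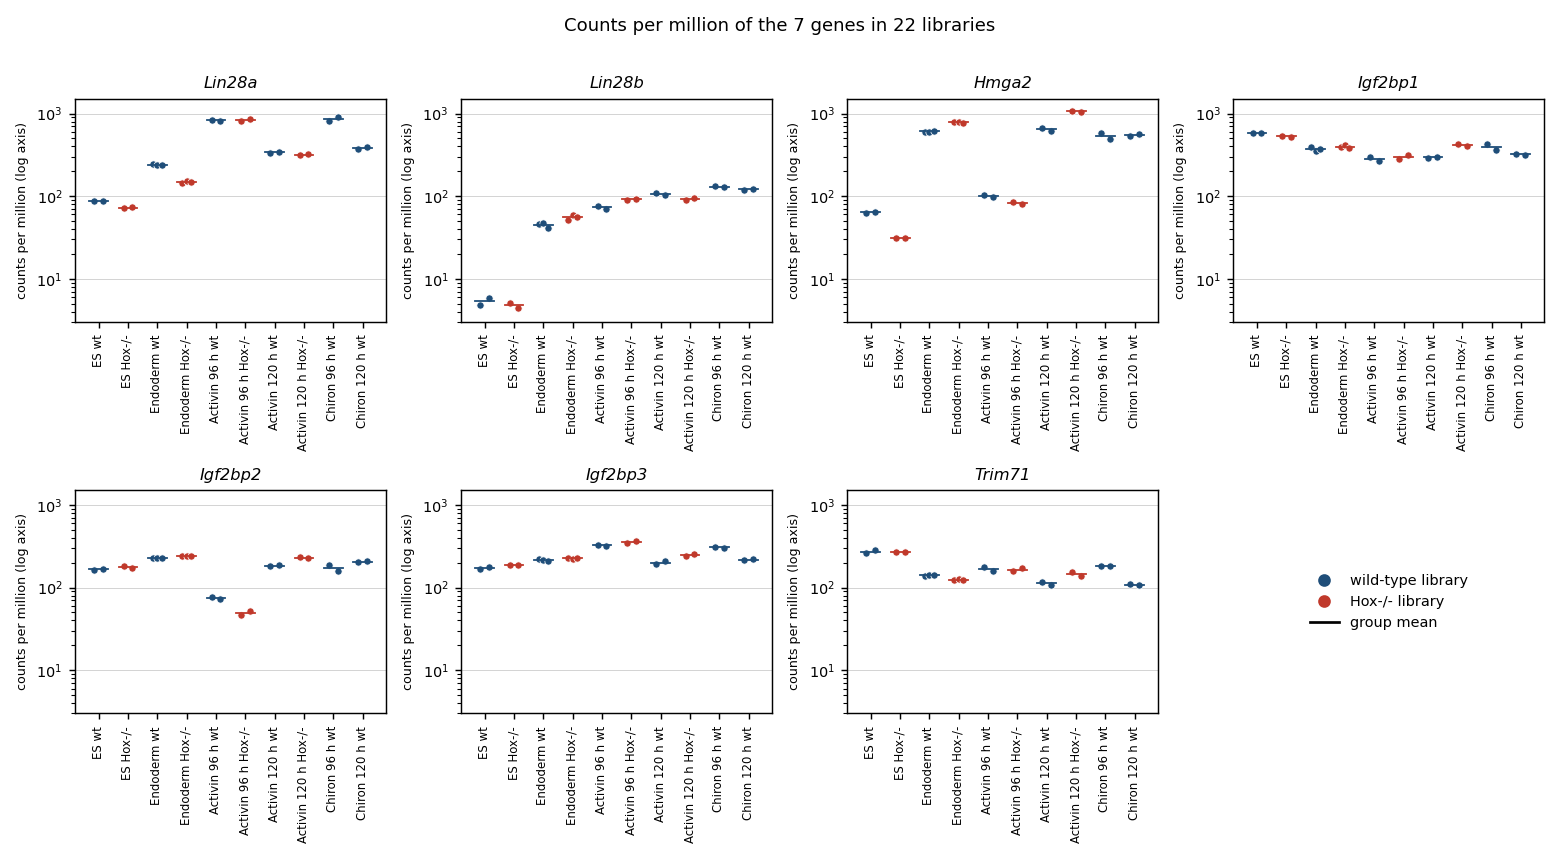
CPM of each gene (log axis) in every library of the 10 groups, with points for libraries, lines for group means, blue for wild type and red for Hox-/-. Hmga2 runs from 31.2 CPM on average in Hox-/- mES cells to 1060 CPM in Hox-/- Activin gastruloids at 120 h, while the highest and lowest means of Igf2bp1, Igf2bp3 and Trim71 lie 2.05- to 2.50-fold apart.

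The 7 genes did not share a profile over the 10 groups. Lin28a and Lin28b were lowest in mES cells and highest in 96 h Chiron gastruloids, Igf2bp1 and Trim71 were highest in mES cells, and Hmga2 was lowest in mES cells and highest in Hox-/- gastruloids at 120 h. The highest group mean exceeded the lowest 34.0-fold for Hmga2, 27.2-fold for Lin28b, 11.9-fold for Lin28a and 4.89-fold for Igf2bp2 in CPM. Per length, in FPKM (which also divides by the length of the gene's transcript), the most abundant of the 7 was Igf2bp1 in mES cells (66.6 in wt), Hmga2 in endoderm (159 in wt, 204.5 in Hox-/-), Lin28a in all 96 h gastruloids (221.5 to 234.5) and Hmga2 in all 120 h gastruloids (134 to 263). Levels of different cultures come from separate FPKM tables and are set side by side as a description. Counts were tested with edgeR's quasi-likelihood test, and a gene with a Benjamini-Hochberg adjusted p under 0.05 over all genes tested is called.

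Of the 4 genotype comparisons, the largest median difference of the 7 genes was in the 120 h gastruloids. There 5 of the 7, namely Hmga2, the 3 Igf2bp genes and Trim71, were higher in Hox-/- libraries and the other 2 did not pass, in a comparison that called 50.4% of 16831 genes (24.9% higher and 25.5% lower). The median log2 fold change of the 7 was 0.44, against -0.02 over all genes tested. At 96 h, Lin28b, Igf2bp1 and Igf2bp3 were higher and Hmga2 and Igf2bp2 lower, with 38.9% of 16831 genes called (22.2% higher and 16.7% lower). In endoderm, Lin28b and Hmga2 were higher and Lin28a and Trim71 lower, with 46.2% of 14975 genes called (23.1% in each direction), so 4 of 7 is close to the background share. In mES cells Lin28a, Hmga2 and Igf2bp1 were lower and the other 4 did not pass, with 23.2% of 13631 genes called (12.4% higher and 10.8% lower). With libraries scaled by total counts alone, the median of all genes fell by a further 0.11 at 120 h, and the share of calls that were higher moved from 49.4% to 34.6% there and from 57.0% to 42.5% at 96 h. The 5 genes called at 120 h were also called higher under that scaling. Without the filter on low counts, the higher share at 96 h was 43.9%.

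**Figure D2:**
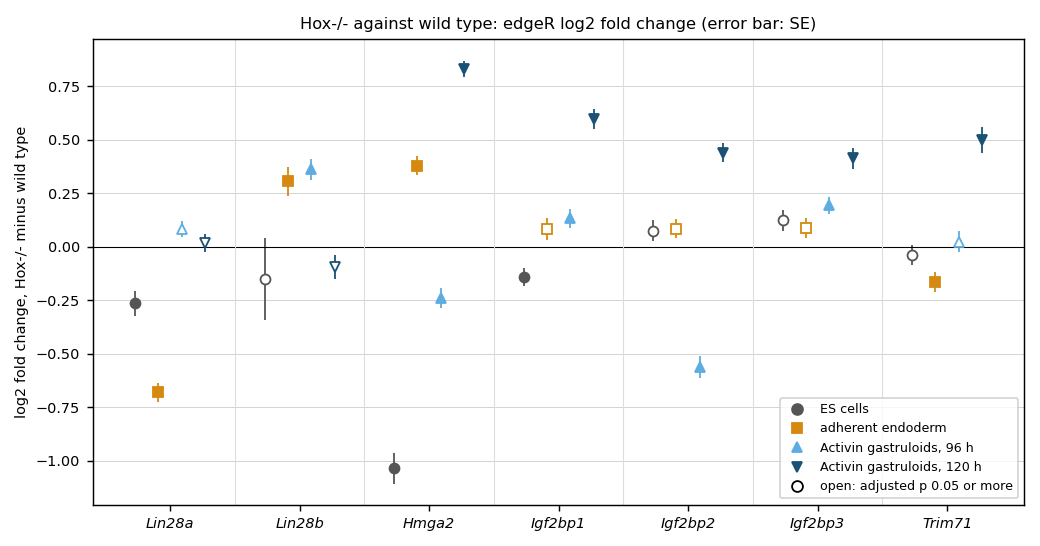
Log2 fold change of each gene between Hox-/- and wild-type libraries (y axis) in mES cells, adherent endoderm and Activin gastruloids at 96 h and 120 h, with SE bars and open symbols where the adjusted p was 0.05 or more. Hmga2 lies at -1.03 in mES cells and at 0.83 in gastruloids at 120 h, and 5 genes lie between 0.41 and 0.83 at 120 h.

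Lin28a, the form of Lin28 that acts mainly in the cytoplasm, was lowest in mES cells, with 88.0 and 86.3 CPM in wt and 72.2 and 73.1 CPM in Hox-/- libraries. It reached 246, 236 and 240 CPM in wt endoderm and 146, 152 and 149 CPM in Hox-/- endoderm. The genotypes did not overlap in either culture. Lin28a was lower in Hox-/- mES cells by 1.2-fold (log2 fold change -0.27, SE 0.0596, edgeR adjusted p = 0.00108) and in Hox-/- endoderm by 1.60-fold (-0.68, SE 0.0454, adjusted p = 2.97e-08). From mES cells to endoderm it rose 2.54-fold in wt (1.34, SE 0.0503, adjusted p = 2.07e-15) and 1.94-fold in Hox-/- cells (0.95, SE 0.0517, adjusted p = 7.86e-13), a rise smaller in Hox-/- cells by 0.39 (interaction -0.39, SE 0.0712, adjusted p = 0.000427). The genotype result in endoderm kept its call in every alternative run, while the mES result lost it in limma on log2(FPKM + 1) (adjusted p = 0.114) and on log2(FPKM + 0.1) (0.0664). All 9 pluripotency markers were also lower in Hox-/- endoderm, where 23.1% of all genes were called lower. These markers summed to 834 to 978 CPM in wt and 246 to 265 CPM in Hox-/- endoderm, and their part in the Lin28a difference was not tested.

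In gastruloids Lin28a depended on time far more than on genotype or treatment. At 96 h it had 831 and 818 CPM in wt Activin, 816 and 870 CPM in Hox-/- Activin and 814 and 919 CPM in Chiron libraries, and these 3 groups overlapped. At 120 h the same cultures had 337 and 342, 312 and 325, and 375 and 397 CPM. Every 120 h library lay below every 96 h library, by 2.56-fold in wt Activin (log2 fold change -1.35, SE 0.0405, edgeR adjusted p = 8.3e-33), 2.68-fold in Hox-/- Activin (-1.42, SE 0.0404, adjusted p = 5.74e-34) and 2.42-fold in Chiron gastruloids (-1.27, SE 0.0534, adjusted p = 1.27e-15). Depth also differed between the times, and with counts thinned to equal totals the log2 fold changes were -1.32, -1.40 and -1.27. Genotype gave log2 fold changes of 0.08 (SE 0.0373, adjusted p = 0.0678) at 96 h and 0.02 (SE 0.0429, adjusted p = 0.768) at 120 h. Neither passed, although the 96 h value did so without replicate 1 of the Hox-/- libraries (0.13, adjusted p = 0.00777), and the 120 h value turned to -0.09 with total counts alone. The Activin and Chiron values at 96 h differed by -0.13 (SE 0.0512, adjusted p = 0.0262), a call lost in 10 of the alternatives, among them those without replicate 2 of the Chiron libraries (-0.01, adjusted p = 0.811), without replicate 1 of the Activin libraries (-0.11, adjusted p = 0.186) and without their replicate 2 (-0.09, adjusted p = 0.288). At 120 h Lin28a was lower under Activin by 1.18-fold (-0.24, SE 0.0549, adjusted p = 0.00126), a call lost in limma on log2(FPKM + 1) (adjusted p = 0.0694). The genotype by time difference (-0.07, SE 0.0568, adjusted p = 0.376) and the treatment by time difference (-0.10, SE 0.075, adjusted p = 0.304) did not pass, the latter being called without replicate 2 of the Chiron 96 h libraries (-0.20, adjusted p = 0.008).

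Lin28b, the paralog that can also act in the nucleus, was low in mES cells and rose with differentiation. Its 4 mES libraries held 4.45 to 5.91 CPM, from 53 to 76 counts each, and the genotypes overlapped (log2 fold change -0.15, SE 0.19, edgeR adjusted p = 0.622). In endoderm it had 45.8, 47.8 and 41.5 CPM in wt and 52.1, 58.8 and 55.5 CPM in Hox-/- libraries. Between mES cells and endoderm it rose 7.77-fold in wt (log2 fold change 2.96, SE 0.113, edgeR adjusted p = 2.87e-15) and 10.8-fold in Hox-/- cells (3.44, SE 0.115, adjusted p = 2.56e-16), a difference between genotypes that did not pass (0.48, SE 0.189, adjusted p = 0.0713). Within endoderm Lin28b was 1.24-fold higher in Hox-/- libraries (0.31, SE 0.0671, adjusted p = 0.00186), which limma on log2(FPKM + 1) put at an adjusted p of 0.0521. Lin28a and Lin28b thus had opposite genotype differences in endoderm.

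In gastruloids Lin28b did not follow the fall of Lin28a. Wt Activin gastruloids went from 76.9 and 70.4 CPM at 96 h to 109 and 104 CPM at 120 h, a 1.37-fold rise (log2 fold change 0.46, SE 0.0529, edgeR adjusted p = 1.12e-10). Hox-/- Activin gastruloids had 89.2 and 93.6 CPM at 96 h and 90.1 and 94.4 CPM at 120 h, with a change of -0.00 (SE 0.0526, adjusted p = 0.985) whose sign varied with the scaling. The time effect was therefore smaller in Hox-/- than in wt gastruloids by 0.46 in log2 (interaction -0.46, SE 0.0744, adjusted p = 1.69e-06). At 96 h the Hox-/- libraries were 1.29-fold higher (0.36, SE 0.0485, adjusted p = 2.23e-08) and at 120 h the difference did not pass (-0.09, SE 0.0564, adjusted p = 0.163). The 120 h difference was called with total counts alone (-0.21, adjusted p = 0.00173) and with a minimum of 10 counts in every library (-0.13, adjusted p = 0.0446). Chiron gastruloids were the highest, with 133 and 128 CPM at 96 h and 119 and 123 CPM at 120 h, a fall of 1.16-fold (-0.22, SE 0.0553, adjusted p = 0.00161) that was not called with total counts alone (-0.11, adjusted p = 0.0869) or in limma on log2(FPKM + 1) (adjusted p = 0.0537). Activin gastruloids were 1.85-fold below Chiron gastruloids at 96 h (-0.89, SE 0.0538, adjusted p = 8.06e-13) and 1.18-fold below at 120 h (-0.23, SE 0.0603, adjusted p = 0.00291; without replicate 2 of the Activin libraries -0.20, adjusted p = 0.0556).

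Measured per length, Lin28a outweighed Lin28b everywhere, but by an amount that varied. The Lin28a to Lin28b ratio of FPKM values was 26.9 ± 3.8 (SD, n = 2) in wt mES cells, 17.9 ± 0.93 in wt Activin gastruloids at 96 h and 5.16 ± 0.19 at 120 h. In endoderm it was 8.59 ± 0.69 in wt and 4.28 ± 0.16 in Hox-/- libraries (n = 3 each), so Lin28b made up 9.7% to 11.2% of the pair in wt and 18.4% to 19.6% in Hox-/- libraries. In the 120 h gastruloids the share of Lin28b was 15.3% to 16.6% in all 3 cultures.

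Hmga2, which encodes a chromatin architectural protein of embryonic and stem cells and is the best-known let-7 target, had the widest range of the 7 genes. Its mES libraries had 62.9 and 64.7 CPM in wt and 31.2 and 31.1 CPM in Hox-/- cells, so the Hox-/- level was 2.05-fold lower (log2 fold change -1.03, SE 0.0725, edgeR adjusted p = 9.06e-14). Of all genes tested in mES cells, 2.72% had a larger absolute change. The call was lost in limma on log2(FPKM + 1), where the value was -0.95 and the adjusted p 0.0502, and it held in the other alternatives. In endoderm the order of the genotypes was the opposite, with 605, 600 and 613 CPM in wt and 789, 789 and 775 CPM in Hox-/- libraries, a 1.30-fold higher level in the latter (0.38, SE 0.0451, adjusted p = 1.02e-05). From mES cells to endoderm Hmga2 rose 8.77-fold in wt (3.13, SE 0.052, adjusted p = 1.24e-20) and 23.8-fold in Hox-/- cells (4.57, SE 0.0579, adjusted p = 1.62e-22). The rise was larger in Hox-/- cells by 1.44 in log2 (SE 0.0734, adjusted p = 4.07e-11).

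A second change of order occurred between the Activin gastruloid times. At 96 h Hmga2 had 102 and 98.7 CPM in wt and 84.2 and 79.6 CPM in Hox-/- libraries, 1.18-fold lower in the latter (log2 fold change -0.24, SE 0.0482, edgeR adjusted p = 6.58e-05). At 120 h it had 666 and 621 CPM in wt and 1067 and 1054 CPM in Hox-/- libraries, 1.78-fold higher in the latter (0.83, SE 0.0392, adjusted p = 5.49e-24). The rise with time was 6.08-fold in wt (2.60, SE 0.0436, adjusted p = 1.36e-43) and 12.8-fold in Hox-/- gastruloids (3.67, SE 0.0455, adjusted p = 1.53e-49), and the difference between them was 1.07 in log2 (SE 0.062, adjusted p = 6.27e-20). The 96 h, 120 h and interaction calls held in every alternative run. At 96 h 10 of the 11 definitive endoderm markers were lower in Hox-/- libraries and Epcam did not pass (-0.09, edgeR adjusted p = 0.108). Of all genes tested at 96 h, 16.7% were called lower. The 11 markers summed to 1145 and 1262 CPM in wt and 586 and 602 CPM in Hox-/- libraries, and their part in the Hmga2 differences was not tested.

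Chiron gastruloids already held Hmga2 near its 120 h level at 96 h. The values were 581 and 496 CPM at 96 h and 536 and 559 CPM at 120 h, the times overlapped, and the change did not pass (log2 fold change -0.08, SE 0.0578, edgeR adjusted p = 0.218). Its 2 libraries at 96 h lay farther apart than the Hmga2 values of any other group, and without replicate 2 of them the change was -0.17 (adjusted p = 0.00385), while without replicate 1 it was 0.07. Activin gastruloids were thus 5.59-fold below Chiron gastruloids at 96 h (-2.48, SE 0.062, adjusted p = 2.68e-20), and 4.70% of all genes had a larger absolute change. At 120 h they were 1.14-fold above (0.18, SE 0.0586, adjusted p = 0.0146), a call lost without replicate 1 of the Chiron libraries (0.16, adjusted p = 0.121), without replicate 1 of the Activin libraries (0.14, adjusted p = 0.174) and in limma on log2(FPKM + 1) (0.20, adjusted p = 0.158). The treatment effect at 120 h exceeded that at 96 h by 2.67 in log2 (SE 0.0848, adjusted p = 3.02e-17).

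**Figure D3:**
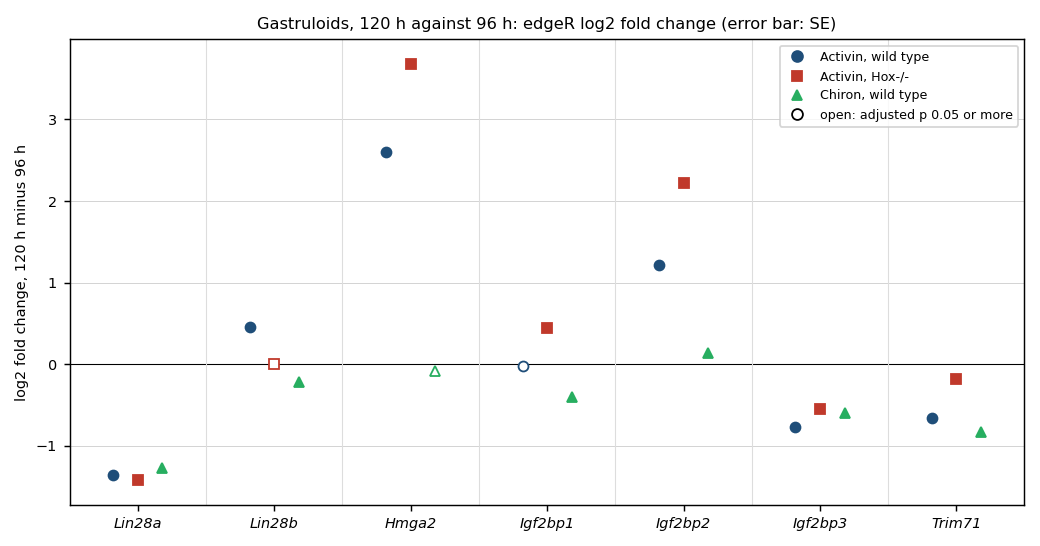
Log2 fold change of each gene from 96 h to 120 h (y axis) in wild-type Activin, Hox-/- Activin and wild-type Chiron gastruloids, with SE bars and open symbols where the adjusted p was 0.05 or more. Lin28a falls by 1.27 to 1.42 in all 3, while Hmga2 lies at 2.60 and 3.67 under Activin and at -0.08 under Chiron.

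With time, 3 of the 7 genes were called higher and 3 lower in wt Activin gastruloids, where 74.9% of genes were called (37.2% higher and 37.8% lower), and again 3 higher and 3 lower in Hox-/- Activin gastruloids, where 72.4% were (34.9% higher and 37.6% lower). In Chiron gastruloids 1 was higher and 5 were lower, with 61.7% of 17305 genes called (28.5% higher and 33.2% lower). These shares leave little to read from the counts alone. The genotype by time interaction was called for 6 of 7 genes, 5 positive and 1 negative, with 38.9% of genes called (18.7% positive and 20.2% negative). Total counts alone moved the median of all genes by 0.11 in the Chiron time comparison.

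The 3 Igf2bp genes encode proteins that bind Igf2 and many other messenger RNAs and affect their transport, translation and stability. Igf2bp1 was highest in mES cells, at 579 and 582 CPM in wt and 529 and 526 CPM in Hox-/- libraries. The Hox-/- level was 1.10-fold lower (log2 fold change -0.14, SE 0.0402, edgeR adjusted p = 0.00925), a call lost in DESeq2 (adjusted p = 0.0563), in limma (0.169 and 0.123 with pseudocounts of 1 and 0.1) and without replicate 1 (0.157) or replicate 2 (0.139) of the wt libraries. In endoderm it had 398, 354 and 377 CPM in wt and 393, 412 and 384 CPM in Hox-/- libraries, which overlapped (0.08, SE 0.0522, adjusted p = 0.212). It fell from mES cells to endoderm by 1.67-fold in wt (-0.74, SE 0.0505, adjusted p = 3.31e-11) and 1.41-fold in Hox-/- cells (-0.50, SE 0.0506, adjusted p = 1.93e-08). The difference of those falls (0.25, SE 0.0721, adjusted p = 0.0161) was not called without replicate 1 of the wt mES libraries (0.23, adjusted p = 0.0874), their replicate 2 (0.25, 0.0574), replicate 1 (0.24, 0.0649) or 2 (0.24, 0.0655) of the Hox-/- mES libraries, or replicate 2 of the wt endoderm libraries (0.20, 0.0563).

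In Activin gastruloids Igf2bp1 differed more between the genotypes at the later time. It had 297 and 270 CPM in wt and 284 and 316 CPM in Hox-/- libraries at 96 h, which overlapped, and 293 and 297 against 425 and 401 CPM at 120 h. The 120 h difference was 1.51-fold (log2 fold change 0.60, SE 0.0465, edgeR adjusted p = 1.16e-15). The 96 h difference (0.13, SE 0.0433, adjusted p = 0.0123) was not called in 10 alternatives, among them total counts alone (0.08, adjusted p = 0.143), without replicate 2 of the wt libraries (0.06, 0.374) and without replicate 2 of the Hox-/- libraries (0.06, 0.342). With time Igf2bp1 rose 1.36-fold in Hox-/- gastruloids (0.45, SE 0.0443, adjusted p = 1.01e-12), and in wt gastruloids the times overlapped (-0.02, SE 0.0457, adjusted p = 0.757). The genotype by time difference was 0.47 (SE 0.0636, adjusted p = 4.36e-08). Chiron gastruloids went from 426 and 366 CPM to 326 and 318 CPM, a fall of 1.32-fold (-0.40, SE 0.0599, adjusted p = 3.5e-06). Activin values were 1.46-fold lower than Chiron values at 96 h (-0.55, SE 0.0585, adjusted p = 2.45e-08) and 1.13-fold lower at 120 h (-0.18, SE 0.0624, adjusted p = 0.0247), the latter a call lost in 8 alternatives, such as without replicate 1 of the Chiron libraries (-0.15, 0.16), replicate 1 (-0.16, 0.137) or replicate 2 (-0.19, 0.0849) of the Activin libraries.

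Igf2bp2, the family member that persists most widely in adult tissues, was the one with a sharp low point. In Activin gastruloids at 96 h it had 76.3 and 73.5 CPM in wt and 46.4 and 52.2 CPM in Hox-/- libraries, below all 18 libraries of the other groups, which held 159 to 243 CPM. The Hox-/- level at 96 h was 1.48-fold lower (log2 fold change -0.56, SE 0.0524, edgeR adjusted p = 8.55e-13), and at 120 h, with 181 and 186 against 232 and 229 CPM, it was 1.36-fold higher (0.44, SE 0.0455, adjusted p = 1.05e-11). The time effect was 2.32-fold in wt (1.22, SE 0.0476, adjusted p = 7.79e-28) and 4.65-fold in Hox-/- gastruloids (2.22, SE 0.0498, adjusted p = 2.31e-38), a difference of 1.00 in log2 (SE 0.0694, adjusted p = 5.05e-17). Like Hmga2, Igf2bp2 thus changed the order of the genotypes between the times. Under Chiron it had 188 and 159 CPM at 96 h, so Activin values were 2.42-fold lower at that time (-1.27, SE 0.0628, adjusted p = 1.49e-14). At 120 h Chiron libraries had 202 and 210 CPM. That time difference (0.14, SE 0.0617, adjusted p = 0.0496) lay at the threshold and was not called without replicate 1 (0.15, 0.122) or 2 (0.11, 0.24) of the 120 h libraries or replicate 2 of the 96 h libraries (0.05, 0.424). The treatment difference at 120 h was -0.22 (SE 0.0648, adjusted p = 0.00892), not called in limma (0.124 and 0.0739), without replicate 2 of the Chiron libraries (-0.20, 0.06) or without replicate 1 of the Activin libraries (-0.19, 0.0898). In mES cells and endoderm its genotype differences were 0.07 (SE 0.0497, adjusted p = 0.292) and 0.08 (SE 0.0439, adjusted p = 0.132), and differentiation raised it 1.26-fold in wt and 1.29-fold in Hox-/- cells (interaction 0.03, SE 0.0657, adjusted p = 0.769).

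Igf2bp3, the oncofetal member of the family, had its peak where Igf2bp2 had its low point. It had 326 and 322 CPM in wt and 344 and 371 CPM in Hox-/- Activin gastruloids at 96 h, against 192 and 210 and 238 and 258 CPM at 120 h. The Hox-/- libraries were higher at both times, by 1.14-fold at 96 h (log2 fold change 0.19, SE 0.0404, edgeR adjusted p = 0.000107) and 1.33-fold at 120 h (0.41, SE 0.0477, adjusted p = 2.36e-10). The 96 h call was lost in limma (adjusted p = 0.466 and 0.36). The difference between the times was 0.22 (SE 0.0625, edgeR adjusted p = 0.00385). It was not called in limma (adjusted p = 0.139 and 0.0823), without replicate 1 of the wt 120 h libraries (0.17) or without replicate 2 of the Hox-/- 120 h libraries (0.17). Igf2bp3 fell with time in all 3 gastruloid cultures, by 1.70-fold in wt Activin (-0.76, SE 0.0449, adjusted p = 1.03e-20), 1.46-fold in Hox-/- Activin (-0.54, SE 0.0433, adjusted p = 7.5e-16) and 1.51-fold in Chiron gastruloids (-0.60, SE 0.0492, adjusted p = 3.32e-10). Chiron values were 307 and 304 CPM at 96 h and 215 and 221 CPM at 120 h, and the treatments gave a difference of 0.02 (SE 0.0468, adjusted p = 0.719) at 96 h and -0.17 (SE 0.0522, adjusted p = 0.0125) at 120 h. The latter call was lost with total counts alone (-0.12, edgeR adjusted p = 0.0814) and in limma (adjusted p = 0.0839 and 0.0516). It was also lost without replicate 1 of the Activin libraries (-0.10) or replicate 2 of the Chiron libraries (-0.16). The treatment by time difference was -0.19 (SE 0.0701, edgeR adjusted p = 0.0363). Its call was lost with thinned counts (-0.21, edgeR adjusted p = 0.0582) and in limma (adjusted p = 0.206 and 0.145). It was also lost without any 1 of replicate 1 (-0.19) or 2 (-0.17) of the Chiron 120 h libraries, replicate 1 of the Activin 120 h libraries (-0.11), and replicate 1 (-0.20) or 2 (-0.21) of the Activin 96 h libraries. In mES cells it had 167 and 177 against 189 and 187 CPM (0.12, SE 0.0492, adjusted p = 0.0626), called without replicate 2 of the Hox-/- libraries (0.13, 0.0348), and in endoderm 211 to 219 against 220 to 231 CPM (0.09, SE 0.0456, adjusted p = 0.132). From mES cells to endoderm it rose 1.15-fold in wt (0.20, SE 0.0481, adjusted p = 0.000761) and 1.14-fold in Hox-/- cells (0.19, SE 0.0477, adjusted p = 0.00128), and the interaction did not pass (-0.01, SE 0.0675, adjusted p = 0.932). Up to 630 counts of Malsu1, a gene on the opposite strand that overlaps Igf2bp3, were present in a library, and whether counting used strand is not given in the sources used here.

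**Figure D4:**
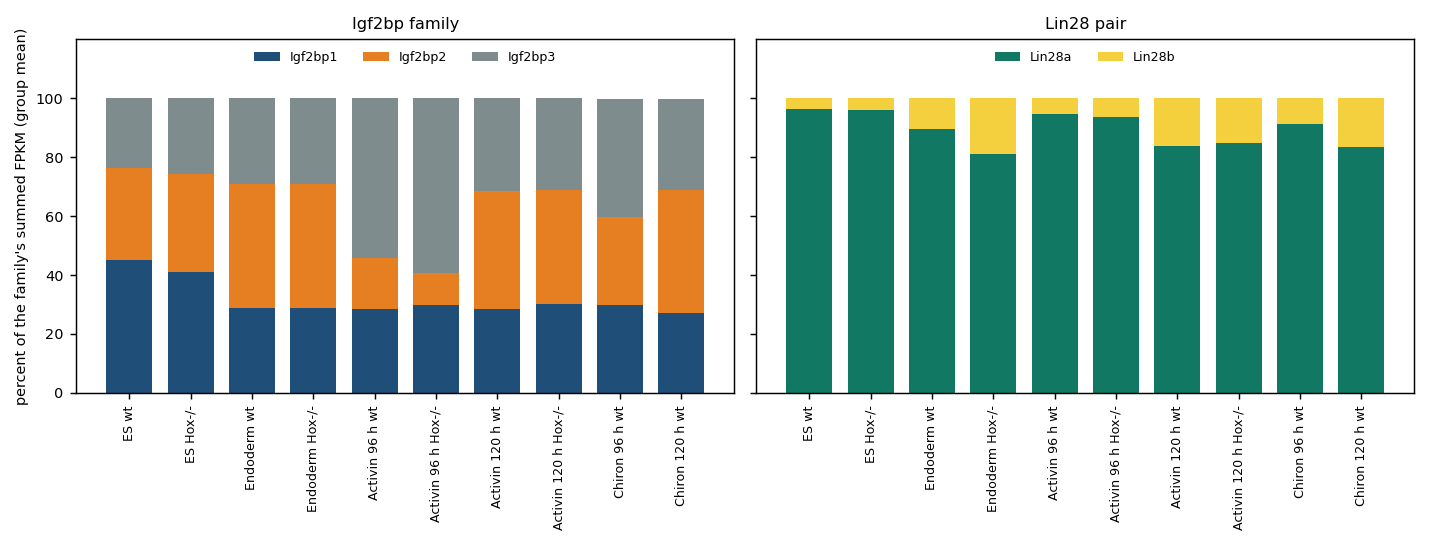
Group-mean share of each Igf2bp gene in the summed FPKM of the family (left) and of Lin28a and Lin28b in the summed FPKM of that pair (right), as stacked percentages for the 10 groups. Igf2bp2 makes up 17.2% and 10.7% of its family in wt and Hox-/- Activin gastruloids at 96 h and 29.9% or more elsewhere.

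The summed level of the Igf2bp family lay between 109 and 157 FPKM in all 10 groups while its makeup changed. The family summed to 148 and 149 FPKM in wt and Hox-/- mES cells, 150 and 157 in endoderm, 149 and 126 in Chiron gastruloids at 96 h and 120 h, 110 and 109 in wt and Hox-/- Activin gastruloids at 96 h and 109 and 150 at 120 h. Igf2bp1 led in mES cells, with 44.5% to 45.5% of the family in wt and 40.7% to 41.1% in Hox-/- libraries. Igf2bp2 led in endoderm, with 41.0% to 42.9% in wt and 41.7% to 42.4% in Hox-/- libraries, which overlapped. Igf2bp3 led in Activin gastruloids at 96 h, with 53.2% to 55.4% in wt and 59.3% to 59.4% in Hox-/- libraries, where Igf2bp2 had 17.0% to 17.4% and 10.7% to 10.8%. By 120 h Igf2bp2 led again, with 39.4% to 40.9% and 38.5% to 39.0%. The genotypes thus had nearly the same makeup at 120 h, while the Hox-/- family total was higher.

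Trim71, which represses messenger RNAs of differentiation and cell-cycle inhibitors in stem cells, was highest in mES cells. It had 261 and 283 CPM in wt and 266 and 266 CPM in Hox-/- mES cells, which overlapped (log2 fold change -0.04, SE 0.0468, edgeR adjusted p = 0.638). In endoderm it had 137, 141 and 143 CPM in wt and 124, 127 and 122 CPM in Hox-/- libraries, 1.12-fold lower in the latter (-0.17, SE 0.0471, adjusted p = 0.00993). The fall from mES cells was 2.10-fold in wt (-1.07, SE 0.048, adjusted p = 3.74e-14) and 2.27-fold in Hox-/- cells (-1.18, SE 0.0481, adjusted p = 7.16e-15), and the difference of the falls did not pass (-0.11, SE 0.0687, adjusted p = 0.287). In Activin gastruloids at 96 h the genotypes overlapped, with 179 and 157 against 159 and 171 CPM (0.02, SE 0.0478, adjusted p = 0.722), and the sign turned with the scaling. At 120 h it had 116 and 108 CPM in wt and 155 and 139 CPM in Hox-/- libraries, 1.41-fold higher in the latter (0.50, SE 0.0595, adjusted p = 6.32e-10). The fall with time was 1.57-fold in wt (-0.65, SE 0.0551, adjusted p = 5.24e-15) and 1.13-fold in Hox-/- gastruloids (-0.18, SE 0.0524, adjusted p = 0.00211, but -0.10 and 0.192 without replicate 2 of the Hox-/- 120 h libraries). The difference between them was 0.48 (SE 0.0764, adjusted p = 1.39e-06; 0.0676 in limma on log2(FPKM + 1)). Chiron gastruloids went from 181 and 180 CPM to 110 and 107 CPM (-0.83, SE 0.0601, adjusted p = 2.97e-11). Activin and Chiron values differed by -0.17 at 96 h (SE 0.055, adjusted p = 0.0119), lost in 6 alternatives including without replicate 2 of the Activin libraries (-0.04, 0.641), and by -0.01 at 120 h (SE 0.0659, adjusted p = 0.951), where the sign turned with the scaling. The treatment by time difference did not pass (0.16, SE 0.0858, adjusted p = 0.148), except without replicate 1 of the Activin 96 h libraries (0.24, adjusted p = 0.0474).

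The treatments were compared in wt gastruloids only, and these comparisons share the wt Activin libraries with those of genotype and time. At 96 h 6 of the 7 genes were lower under Activin than under Chiron and Igf2bp3 did not pass. The median log2 fold change of the 7 was -0.55 against -0.00 for all genes, with 61.6% of 17305 genes called (31.3% higher and 30.2% lower). The 96 h count also depended on single libraries. With 1 left out, the Lin28a difference ran from -0.185 to -0.014 and that of Trim71 from -0.226 to -0.04. Against counting error alone, the chi-square per degree of freedom was 10.3 between the 2 Chiron libraries at 96 h and 1.37 to 4.76 in the other groups. At 120 h 5 were lower and 1 higher, with 41.9% called (20.3% higher and 21.6% lower), and the median was -0.18. That count is sensitive to each library: it was 2 to 4 genes when any 1 library was left out, the lowest without replicate 1 of the Activin libraries. The treatment by time interaction was called for 5 genes, 4 of them positive and 1 negative, with 39.6% called (21.7% positive and 18% negative). From mES cells to endoderm all 7 genes were called in each genotype, with Igf2bp1 and Trim71 lower and the other 5 higher, where 79.9% of 16251 genes were called in wt (41.6% higher and 38.3% lower) and 80.6% in Hox-/- cells (42.7% higher and 37.9% lower). Total counts alone moved the median of all genes by 0.12 in wt. The genotype by differentiation interaction was called for 3 genes, 2 positive and 1 negative, with 24.1% called (11.6% positive and 12.5% negative). Whether mES and endoderm libraries were prepared together is not given in the sources used here.

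The machinery that makes and removes let-7 was measured through 15 genes, among them Drosha and Dgcr8, which cut primary microRNAs, Dicer1, which cuts the precursors, Xpo5, which exports them, the Argonaute genes and the uridylyltransferase Tut4. In endoderm 7 of the 15 were higher in Hox-/- libraries and the other 8 did not pass, with Tut4 at 259 against 173 CPM (log2 fold change 0.60, SE 0.0476, edgeR adjusted p = 1.95e-07) and Ago1 at 266 against 196 CPM (0.45). At 96 h in Activin gastruloids 6 were higher and the other 9 did not pass, including Msi1 (121 against 88.9 CPM, 0.50) and Tut4 (102 against 81.6 CPM, 0.38). At 120 h 6 were higher and 2 lower, led by Drosha (230 against 162 CPM, 0.61, SE 0.0452, adjusted p = 1.62e-16), Ago2 (196 against 141 CPM, 0.58) and Dicer1 (209 against 162 CPM, 0.48). In mES cells 4 of 14 tested were higher and 1 lower. The list medians were 0.11, 0.09, 0.08 and 0.09 in the same order, against 0.00, 0.03, -0.02 and 0.00 for all genes. The shares of all genes called in these comparisons were 46.2%, 38.9%, 50.4% and 23.2%, so in the first 3 the total counts of the list lie near the background. By direction, 23.1%, 22.2%, 24.9% and 12.4% of all genes were called higher, and 23.1%, 16.7%, 25.5% and 10.8% lower. The calls of the list thus leaned more to the higher side than those of all genes, and this lean was not tested. Activin gastruloids were lower than Chiron gastruloids for 8 of the 15 at 96 h, and the other 7 did not pass. Of all genes 61.6% were called there (31.3% higher and 30.2% lower). Dicer1 had 129 against 212 CPM (-0.78) and Drosha 215 against 313 CPM (-0.60).

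Of 17 let-7 and miR-125 genes and host transcripts in the tables, only Mir100hg, the host of let-7a-2 and miR-125b-1, held enough counts to be tested. It had 15 CPM in wt and 51.0 CPM in Hox-/- endoderm (log2 fold change 1.77, SE 0.14, edgeR adjusted p = 1.75e-07), and 7.62 against 4.22 CPM in Activin gastruloids at 120 h (-0.74, SE 0.215, adjusted p = 0.00323). It rose with time under Activin from 0.424 to 7.62 CPM in wt and from 0.284 to 4.22 CPM in Hox-/- gastruloids, and under Chiron from 0.201 to 12.2 CPM. A host transcript is not a measure of the mature microRNA.

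Of 20 other genes known as let-7 targets, 12 were higher and 3 lower in Hox-/- gastruloids at 120 h. The median log2 fold change of the 20 was 0.14 against -0.02 for all genes, of which 24.9% were called higher and 25.5% lower. Mycn, a growth-promoting transcription factor, had 201 against 115 CPM (0.92, SE 0.0525, edgeR adjusted p = 9.69e-21), the cyclin-dependent kinase gene Cdk6 57.1 against 29.6 CPM (1.06), the phosphatase gene Cdc25a 117 against 88.2 CPM (0.52), and Mycl 48.9 against 74.6 CPM (-0.50). At 96 h 9 were higher and 4 lower (median 0.11 against 0.03, with 22.2% and 16.7% of all genes called), with the cyclin gene Ccnd2 at 378 against 211 CPM (0.89) and Mycn lower (-0.28). In endoderm 9 were higher and 5 lower (median 0.11 against 0.00, with 23.1% of all genes called in each direction), with Ccnd2 at 248 against 136 CPM (0.88) and Ccnd1 at 150 against 87.1 CPM (0.80). In mES cells 3 were higher and 3 lower (median 0.01 against 0.00, with 12.4% and 10.8% of all genes called), with Plagl1 at 223 against 149 CPM (0.58) and Myc at 6.64 against 14.5 CPM (-1.13). Under Activin against Chiron 15 of the 20 were lower and 3 higher at 96 h (median -0.60 against -0.00, with 30.2% of all genes called lower and 31.3% higher), led by Nr6a1 (225 against 490 CPM, -1.19), Plagl2 (52.6 against 140 CPM, -1.48) and Mycn (69.5 against 153 CPM, -1.20). At 120 h 15 were lower and 1 higher (median -0.23 against -0.01, with 21.6% and 20.3% of all genes called), the higher one being Mycn (115 against 70.3 CPM, 0.66). Of these 20 genes 12 have a CTACCTC match in the 3′ UTR, against all 7 genes of the axis.

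In the insulin-like growth factor arm, whose messenger RNAs include targets of the Igf2bp proteins, the imprinted noncoding RNA H19 had the smallest p between genotypes in endoderm and gastruloids. It had 384 CPM in wt and 4152 CPM in Hox-/- endoderm (log2 fold change 3.44, SE 0.0748, edgeR adjusted p = 2.61e-13), 9.75 and 38.0 CPM in Activin gastruloids at 96 h (2.04, SE 0.0842, adjusted p = 3.96e-26) and 277 and 2311 CPM at 120 h (3.17, SE 0.0471, adjusted p = 3.17e-45). The receptor gene Igf2r was lower in Hox-/- endoderm, at 130 against 251 CPM (-0.94), and higher in Hox-/- mES cells, at 156 against 106 CPM (0.55). Of the 10 genes of this list, 4 were higher and 2 lower in endoderm, 3 and 2 at 96 h, and 5 and 2 at 120 h, and in mES cells 3 of 7 tested were higher. All genes were called at 46.2%, 38.9%, 50.4% and 23.2% in these comparisons. Between 96 h and 120 h in wt Activin gastruloids 8 of 10 rose and the other 2 did not pass (median 0.87). There 74.9% of all genes were called (37.2% higher and 37.8% lower). The growth factor gene Igf2 had 3.06 and 67.3 CPM (4.39). In Hox-/- Activin gastruloids 6 rose and 1 fell, with Igf2 at 1.37 and 82.2 CPM (5.88). Of all genes, 72.4% were called there (34.9% higher and 37.6% lower). Under Activin 8 of the 10 genes were lower than under Chiron at 96 h, with Igf2 at 3.06 against 81.5 CPM (-4.80). That comparison called 61.6% of all genes (31.3% higher and 30.2% lower).

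Among 7 targets and relatives of Trim71, the cell-cycle inhibitor gene Cdkn1a, whose messenger RNA Trim71 is known to repress, was higher in Hox-/- cultures after differentiation. It had 304 against 625 CPM in endoderm (log2 fold change 1.05, SE 0.0666, edgeR adjusted p = 1.84e-08), 282 against 431 CPM in Activin gastruloids at 96 h (0.66, SE 0.0365, adjusted p = 5.08e-21) and 90.2 against 152 CPM at 120 h (0.86, SE 0.0512, adjusted p = 4.9e-20). Of the 7, 4 were higher and 1 lower in endoderm, and 3 and 1 at each gastruloid time, where 46.2%, 38.9% and 50.4% of all genes were called. In mES cells Trim2 alone passed and was lower (73.1 against 87.9 CPM, -0.27). Of 8 genes that mark axial timing or the early pluripotent state, 2 were higher and 5 lower in Hox-/- endoderm, with the DNA methyltransferase gene Dnmt3b at 90.7 against 200 CPM (-1.13), Utf1 at 9.47 against 37.8 CPM (-1.99), Dppa4 at 5.16 against 18.9 CPM (-1.88) and the growth factor gene Gdf11 at 49.8 against 29.2 CPM (0.79). At 96 h 1 was higher and 4 lower. At 120 h 3 were higher, among them the pluripotency regulator gene Sall4 (344 against 239 CPM, 0.64) and the surface receptor gene Prtg (652 against 462 CPM, 0.61). The 3 lower ones there included the low-level genes Utf1 (0.277 against 5.39 CPM, -4.17) and Dppa4 (0.859 against 4.63 CPM, -2.32). In mES cells 2 of the 8 were higher and 3 lower, where 23.2% of all genes were called (12.4% higher and 10.8% lower).

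Igf2bp1 lies on mouse chromosome 11 (mm10 positions 95957163 to 96005940), 188 kb from Hoxb13 at the end of the Hoxb cluster, and the other 6 genes lie elsewhere, with Igf2bp3 2.94 Mb from the Hoxa cluster. The tables held 44 other non-Hox genes that start within 500 kb of the Hoxb cluster. In Activin gastruloids at 120 h 24 of them were tested, of which 5 were higher and 7 lower in Hox-/- libraries, and on the side of Igf2bp1 4 of 13 were higher and 1 was lower. With 50.4% of all genes called in that comparison, these counts do not exceed the background. Of 5 inside the cluster 4 were lower at 120 h (Hoxb3os, Hoxb5os, Gm53 and Gm11536) and 4 in endoderm (Hoxb3os, Hoxb5os, Gm53 and Mir196a-1). Nfe2l1, on the far side of the cluster, was higher at 120 h (log2 fold change 0.35, SE 0.0484, edgeR adjusted p = 2.94e-08). At 96 h 4 of 24 were higher and 4 lower, where 38.9% of all genes were called (22.2% higher and 16.7% lower). On the side of Igf2bp1, Atp5g1 was at 0.18 (SE 0.0386, edgeR adjusted p = 0.000182) and Ube2z at 0.16 (SE 0.0372, adjusted p = 0.00045). In endoderm 2 of 20 were higher and 8 lower, where 46.2% of all genes were called (23.1% in each direction). The lower count lay above that share, with 4 of the 8 inside the cluster, and this was not tested. In mES cells 5 of 17 were higher and 2 lower, with Zfp652 at 0.33 (SE 0.0653, edgeR adjusted p = 0.000242) and Copz2 at 1.29 (SE 0.249, adjusted p = 0.000181). On the side of Igf2bp1 3 of 10 were higher there and 0 lower. Of all genes tested in mES cells 23.2% were called (12.4% higher and 10.8% lower), so the count of higher neighbours lay above that share. Igf2bp1 itself went from -0.14 in mES cells to 0.60 in gastruloids at 120 h.

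**Figure D5:**
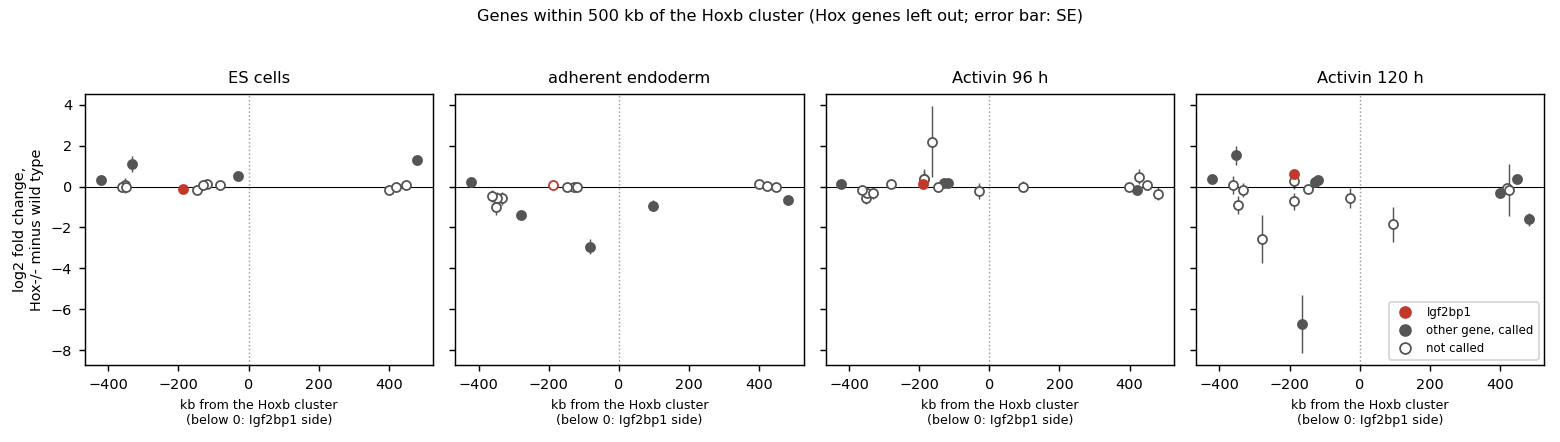
Log2 fold change between Hox-/- and wild-type libraries (y axis) of tested non-Hox genes within 500 kb on either side of the Hoxb cluster. The x axis gives the distance from the cluster in kb, in the 4 genotype comparisons, with SE bars. Igf2bp1 is in red, and open symbols mark genes not called. Genes inside the cluster are not plotted, and Igf2bp1 lies at 0.60 at 120 h.

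Over the 10 group means, on log2(CPM + 1), the genes most like each of the 7 were found among 12372 genes with a mean of at least 5 CPM in some group. The points share libraries of few cultures and 2 genotypes, so the Pearson correlations are descriptions. Lin28a was most like Rnf114 (r = 0.993), Gdap1l1 (0.987) and Emc10 (0.981), and Lin28b like Sh3bgrl (0.997), Pde7a (0.995) and Zfp503 (0.995). Hmga2 was most like Tmem132c (0.982), Pcsk5 (0.98) and Zmiz1 (0.976), of which Tmem132c ran from 1.17 to 237 CPM. Igf2bp1 was most like Srbd1 (0.982), Polr1b (0.976) and Sh3bp1 (0.975), Igf2bp2 like Tarbp1 (0.959), Nav1 (0.948) and Nol4l (0.947), and Igf2bp3 like Il17d (0.98), Xpo6 (0.974) and Gatad1 (0.973). Trim71 was most like the RNA helicase gene Ddx21 (0.984), Nup54 (0.982) and Fubp3 (0.981). Among the 7 themselves r ranged from 0.882 for Lin28a with Igf2bp3 to -0.821 for Lin28b with Igf2bp1, and it was 0.84 for Lin28a with Lin28b, 0.576 for Hmga2 with Igf2bp2 and -0.803 for Hmga2 with Trim71.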

How the data were processed

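Raw counts per Ensembl gene and library were deposited by the authors as whole numbers. FPKM values, deposited by the authors in separate tables, came with gene symbols and mm10 positions. For the genes of the axis these positions matched GENCODE vM21, except at 1 end of Lin28b. That end was 45470201 with the FPKM values and 45486395 in GENCODE vM21. The submitters' processing notes name cutadapt 1.16, STAR 2.7.7a and Cufflinks 2.2.1. The counting tool and its use of strand are not given in the sources used here. The 7 genes and the gene lists were chosen with earlier results of these data known.

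CPM values are counts scaled by library total. Counts were tested with edgeR 4.0.16 (R 4.3.3) after filterByExpr, with TMM scaling, so log2 fold changes differ slightly from CPM ratios. In all, 14 contrasts came from 5 fits over all genes. DESeq2 1.42.0 and limma 3.58.1, the latter on log2(FPKM + 1) and log2(FPKM + 0.1), served as alternatives, with other scalings and filters, thinned counts, other sets of groups, the replicate number as a block and each library left out. On simulated counts for 5 of the contrasts the edgeR script recovered 77.7% to 89.6% of changes of 1 in log2. Of changes of 2 it recovered 95.1% to 99.5%, and 5.2% to 8.17% of its calls were false. Each draw changed 200 genes, as many up as down, far fewer than any contrast here called. These shares therefore do not give the error rate of the calls reported here. Every gene of the axis is named in each comparison. Of each list up to 4 called genes with the smallest p are named. Per gene of the axis the 3 most alike genes by Pearson r are named, and up to 4 called neighbours of the Hoxb cluster. Predicted genes were left out of the most alike. Tables were made with pandas 2.3.3 under Python 3.11.15. Libraries held 9108085 to 28819301 counts, and the lowest count of the 7 genes was 53. UTR matches were searched on the transcript strand only.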

Additional observations from a re-analysis of the deposited data

Results flagged for a closer look

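For 14 results the effect differed between cultures, times or treatments by edgeR's test of the difference itself. From mES cells to endoderm, the change in Hox-/- cells minus that in wild-type (wt) cells was -0.39 in log2 for Lin28a, 1.44 for Hmga2 and 0.25 for Igf2bp1. From 96 h to 120 h in Activin gastruloids, the change in Hox-/- minus that in wt gastruloids was -0.46 for Lin28b, 1.07 for Hmga2, 0.47 for Igf2bp1, 1.00 for Igf2bp2, 0.22 for Igf2bp3 and 0.47 for Trim71. In wt gastruloids the change with time under Activin minus that under Chiron was 0.65 for Lin28b, 2.67 for Hmga2, 0.37 for Igf2bp1, 1.05 for Igf2bp2 and -0.19 for Igf2bp3. The last of these comparisons shares the wt Activin libraries with the one before it.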

How the results depend on the processing

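Of 98 results on the 7 genes, 75 were called in edgeR, and none of these reversed in any alternative. Of the 75, 53 kept the call throughout and 22 lost it at least once, 20 of them in limma on FPKM values and 14 with a library left out. The results that reversed were uncalled changes near 0. For Trim71 between genotypes at 96 h (0.02 in log2), the values were -0.029 with total counts alone, -0.024 with no filter, -0.008 with a minimum of 10 counts, -0.040 and -0.042 in limma (pseudocounts of 1 and 0.1), -0.013 with only the groups compared and -0.070 to 0.119 with a library left out. For Trim71 between treatments at 120 h they were 0.045, 0.009, 0.028, 0.020, 0.022 and 0.025 in the same order, 0.015 with thinned counts and -0.054 to 0.044 with a library left out. For Lin28a between genotypes at 120 h they were -0.094 with total counts alone, -0.017 with a minimum of 10 counts, -0.034 and -0.035 in limma and -0.007 to 0.051 with a library left out. For Lin28b with time in Hox-/- gastruloids they were 0.015, 0.013 and 0.002 with total counts alone, no filter and only the groups compared, and -0.040 to 0.035 with a library left out. For Igf2bp1 with time in wild-type (wt) Activin gastruloids they were 0.059 with total counts alone, 0.001 with thinned counts and -0.089 to 0.047. For Hmga2 with time under Chiron they were 0.024 with total counts alone and -0.165 to 0.068. Igf2bp3 between treatments at 96 h was -0.005 in both limma settings, and the Lin28a genotype by time difference was 0.012 with no filter. For the genotype by differentiation difference, Igf2bp2 was -0.002 with total counts alone and -0.005 to 0.056, and Igf2bp3 -0.050 to 0.010, with a library left out. Trim71 between genotypes in mES cells was -0.094 to 0.015. Counts of calls moved by more than 1.5 times in these cases. In mES cells 3168 genes were called, against 1099 in DESeq2, 23 and 372 in limma (pseudocounts of 1 and 0.1) and 1477 to 3372 with a library left out, and of the 7 genes 3 were called, against 0 and 1 in limma. At 96 h between genotypes 6546 genes were called, against 3647 in DESeq2, 3896 with thinned counts and 2665 and 2787 in limma, and 3 of the 7 in both limma settings. In limma the count was 4469 in endoderm (6922 in edgeR, pseudocount 1), 4193 and 4264 for genotype by time (6544) and 6670 between treatments at 96 h (10655, pseudocount 0.1). Of the 7 genes, 1 and 2 were called in limma between treatments at 120 h, 2 to 4 there with a library left out, and 3 in both limma settings for treatment by time. The causes were not tested. Over 29 pairs with the same replicate number, the correlation of deviations ran from -0.261 to 0.245, and 3 exceeded 0.1. These pairs are not separate checks, because in groups of 2 libraries the deviations mirror each other, and some wt Activin pairs were counted more than once. In mES cells the pairs with the same number were at 0.155. These values do not settle whether the replicate numbers pair the samples. With the replicate number as a block the count of the 7 called rose from 3 to 4 in mES cells, where Igf2bp3 passed (0.12 in log2, edgeR adjusted p = 0.0157) and 3793 genes were called, and it did not move in the other 13 comparisons. Depth limits Lin28b most in mES cells, where it had 53 to 76 counts in a library.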
